A study of Mus musculus with 8 samples.

Results

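The genes described here are 40 genes of the endoplasmic reticulum (ER) stress response, taken by symbol from a gene-level table of 35852 genes. They comprise 16 genes of the ATF4 arm, 20 genes of protein folding and degradation in the ER, and 4 genes of the sensors and their transcription factors. All 40 were found, and all 40 passed the filter on low counts that left 13272 genes for testing. The RNA came from bEnd3, an established line of mouse brain endothelial cells, in which poly(A)-selected RNA was sequenced from 8 samples. Of these, 4 had received corticosterone, the main glucocorticoid hormone of mice, at 5 µM for 24 h, and 4 had stayed in culture medium. Both groups were grown in DMEM with serum, and the labels name no vehicle. The treatment protocol given for the medium samples also names corticosterone, so the groups were taken from the titles and the treatment field. The cells are 1 line, and the labels do not say whether the replicates came from separate cultures. The p-values therefore reflect only how far these 8 samples scatter, which may be technical.

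The ER folds and exports secreted and membrane proteins. When unfolded proteins accumulate there, the sensors PERK, IRE1 and ATF6 start the unfolded protein response. PERK phosphorylates the initiation factor eIF2, which slows translation in general while the transcription factor ATF4 is translated more, and ATF4 in turn induces genes of amino acid supply and stress regulation. IRE1 splices the mRNA of XBP1, and XBP1 and the cleaved form of ATF6 induce ER chaperones and the genes that remove misfolded proteins. Endothelial cells secrete matrix and clotting factors, which fold in the ER.

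Total estimated counts (M, 1000000 counts) were 27.7 to 33.2 M in the corticosterone libraries and 19.7 to 46.2 M in the medium libraries. Corticosterone replicates 1 and 2 seem to have been quantified in another way than the other 6 libraries. The labels do not state this, and it is inferred from the effective lengths of these replicates. Their effective length, the transcript length that counts are divided by, equalled the length plus 1 in 100% of 61001 transcripts of 1000 nt or more, against 0% in the others. Pairs of libraries of 1 group that held either of them differed by a mean chi-square of 44.1 to 95.2 per gene, against 2.16 to 4.75 in the other pairs. Results are therefore given for all 8 libraries and for the 6 without them. All 11 endothelial markers exceeded 1 CPM (counts per 1000000 counts of the scaled library) in every library, with sums of 9057 to 9404 CPM with corticosterone and 8236 to 8747 CPM in medium. By the test given below, 6 of the 11 were higher and 3 lower with corticosterone, against 19.5% and 20.6% of all genes tested. The 4 glucocorticoid receptor targets used as a check of the treatment were higher with corticosterone, at 457 to 466 CPM in sum, against 81.4 to 85.1 CPM in medium. Markers of other cells were low. The 7 pericyte and smooth muscle markers summed to 3.14 to 4.15 CPM with corticosterone and 4.53 to 5.68 CPM in medium, and the 6 fibroblast markers to 5.74 to 6.69 CPM with corticosterone and 19.9 to 22.0 CPM in medium. Most of the fibroblast sum was Pdgfra, with means of 4.87 CPM with corticosterone and 18.4 CPM in medium. The 7 neuron and glia markers, of which 3 had no count in any library, summed to 0.702 to 0.831 CPM with corticosterone and 0.314 to 0.594 CPM in medium. The 6 leukocyte markers summed to 16.7 to 18.2 CPM with corticosterone and 16.5 to 18.6 CPM in medium. The part of these levels in the results below was not tested. In bulk RNA, a change in how many cells express a gene and a change in its RNA per cell cannot be told apart.

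Of the 40 genes, 29 changed with corticosterone, 23 higher and 6 lower, and 11 did not pass the test (edgeR quasi-likelihood test, adjusted p under 0.05 over all genes tested). Among all 13272 genes tested, 40.1% changed, 19.5% higher and 20.6% lower. The changes were small. The median log2 fold change of the 40 genes was 0.15, and that of all genes tested was -0.005. In 26 of the 40 genes every library of one group lay above every library of the other, against 39.9% of all genes tested. The directions differed by role. All 11 ER chaperones and 3 of 5 disulfide enzymes rose and none of them fell, whereas the 16 genes of the ATF4 arm divided into 6 that rose, 6 that fell and 4 that did not pass.

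**Figure D1:**
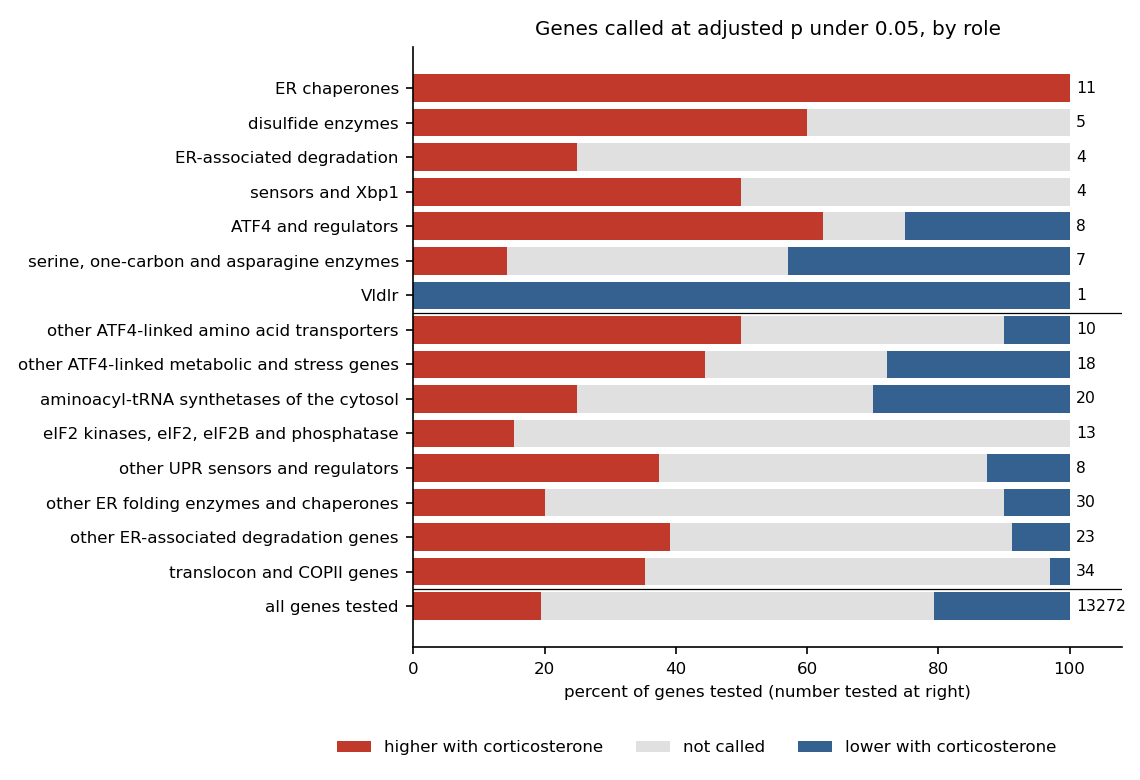
Percent of genes tested that were called higher (left, red), not called (grey) or called lower (right, blue) with corticosterone relative to medium, by role, with the number tested at the right. All 11 ER chaperones were called higher, against 19.5% of all 13272 genes tested, and 3 of the 7 serine, one-carbon and asparagine enzymes were called lower.

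Levels can be compared between genes on the TPM scale, which is per transcript length. In medium, 6 ER folding genes held the highest levels of the 40. Hsp90b1 had 748 ± 9.48 TPM, Hspa5 711 ± 19.3 TPM and Calr 630 ± 21.5 TPM (SD, n = 4). Pdia3 followed at 504 ± 9.51 TPM, Canx at 491 ± 2.86 TPM and P4hb at 368 ± 5.87 TPM. Pdia3 and Canx differed by little more than the SD of Pdia3. The ATF4 arm spanned a wide range in medium, with Phgdh at 155 ± 5.40 TPM and Atf4 itself at 109 ± 2.07 TPM near its top. At its lower end stood Chac1 at 4.32 ± 0.0533 TPM, Trib3 at 3.31 ± 0.407 TPM, Nupr1 at 2.62 ± 0.632 TPM and Aldh1l2 at 0.780 ± 0.0768 TPM. Of the sensors, Ern1 was at 7.62 ± 0.231 TPM and Eif2ak3 at 13.4 ± 1.38 TPM.

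**Figure D2:**
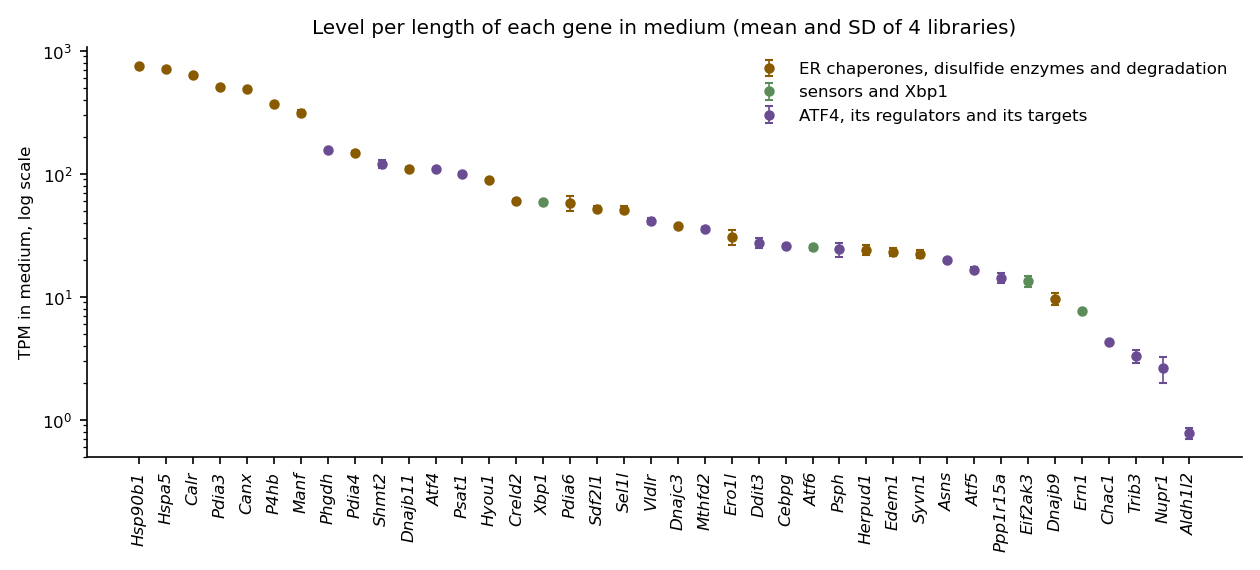
TPM of the 40 genes in medium on a log scale, in falling order (points are means and bars SDs of 4 libraries), coloured by role. The 7 highest genes, from Hsp90b1 at 748 TPM to Manf at 311 TPM, are all ER folding genes, and Aldh1l2 is lowest at 0.780 TPM.

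The ER chaperones bind unfolded proteins in the ER lumen. Many of their promoters carry the ER stress response element (ERSE), CCAAT and CCACG with 9 bases between them, which NF-Y and the ATF6 or XBP1 proteins recognise together. Promoter windows from 250 bases before to 50 bases after the start, from RefSeq on GRCm38.p6, were found for 36 of the 40 genes. The windows of Manf, Hyou1, Atf6 and Aldh1l2 were not used here. Searched on both strands, ERSE was found in 6 of the 9 chaperone genes with a window and in 8 of 18 windows of all folding and degradation genes, each with 1 window. It was in 0 of 18 windows of the ATF4 arm, in which Atf5, Psat1 and Vldlr have 2 windows each. Of 32851 promoter windows of all genes, 39 held it (0.119%). The 250 bases before the start of 3 chaperone genes that rose are shown 5′ to 3′ in the direction of the gene with the ERSE in capitals, in either orientation, since these genes share the element. They are Calr (chr8:84846932-84847181, minus strand), Canx (chr11:50325674-50325923, minus strand) and Dnajc3 (chr14:118937682-118937931, plus strand).
Calr: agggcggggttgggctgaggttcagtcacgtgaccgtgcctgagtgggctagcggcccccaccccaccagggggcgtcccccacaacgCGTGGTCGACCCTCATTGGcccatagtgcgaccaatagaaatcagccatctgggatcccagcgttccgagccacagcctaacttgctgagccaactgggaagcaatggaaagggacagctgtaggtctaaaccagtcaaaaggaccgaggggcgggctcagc
Canx: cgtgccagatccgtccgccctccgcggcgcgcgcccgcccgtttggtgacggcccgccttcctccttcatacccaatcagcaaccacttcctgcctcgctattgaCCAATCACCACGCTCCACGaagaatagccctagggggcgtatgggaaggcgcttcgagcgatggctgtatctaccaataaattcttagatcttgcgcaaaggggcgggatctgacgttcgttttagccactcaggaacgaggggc
Dnajc3: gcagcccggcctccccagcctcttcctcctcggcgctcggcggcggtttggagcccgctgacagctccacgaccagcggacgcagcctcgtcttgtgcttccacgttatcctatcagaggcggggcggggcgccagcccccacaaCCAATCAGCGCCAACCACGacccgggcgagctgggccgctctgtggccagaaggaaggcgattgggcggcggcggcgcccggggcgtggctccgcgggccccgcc

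The first base of the element lay at position -162 in Calr, -145 in Canx and -105 in Dnajc3, counted from the start. The other sites are shown with 5 bases on either side and the fixed letters of the motif in capitals, each on the strand on which the motif reads. The Hspa5 site is at chr2:34772025-34772043, plus strand and the Creld2 site at chr15:88819520-88819538, minus strand. Hsp90b1 holds a pair, at chr10:86705638-86705656, minus strand and chr10:86705533-86705551, plus strand.
Hspa5: cttcaCCAATcggaggcctCCACGacggg
Hsp90b1: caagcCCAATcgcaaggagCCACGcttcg
Hsp90b1: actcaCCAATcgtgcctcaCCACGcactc
Creld2: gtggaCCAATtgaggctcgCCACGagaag

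ERSE also occurred in the windows of Pdia6 and Syvn1, neither of which passed the test. It was absent from the windows of Dnajb9, Dnajb11, Sdf2l1, P4hb, Pdia3, Pdia4 and Edem1, which all rose. Canx and Dnajc3, whose sequences are shown above, had the smallest rises of the chaperones, with log2 fold changes of 0.09 each. The element was thus found in genes that rose and in Syvn1, which did not pass, and was absent from others that rose. The related ERSE-II (ATTGG and CCACG with 1 base between them), found in 12 of all windows (0.037%), occurred in Dnajb11, which rose, and Herpud1, which did not pass. The UPRE (TGACGTGG), present in 0.676% of all windows, and the glucocorticoid response element (GNACA and TGTNC with 3 bases between them), present in 0.475%, were in none of the 36 genes. A match of letters is a description and not a bound site.

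All 11 ER chaperone genes were higher with corticosterone, by log2 fold changes of 0.09 to 0.48 with a median of 0.20. The groups did not overlap in 10 of them, Creld2 being the exception, where 39.9% of all genes tested did not overlap. Together the 11 genes had 5562 ± 155 CPM with corticosterone and 4760 ± 92.2 CPM in medium (SD, n = 4), a rise of 16.8%.

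Hspa5 (ENSMUSG00000026864.13, chromosome 2, 34771970 to 34777547, plus strand, GENCODE M21 on GRCm38) encodes BiP, the Hsp70 chaperone of the ER that also holds the sensors inactive. It had 1138, 1126, 1051 and 1125 CPM in corticosterone replicates 1 to 4, against 872, 931, 924 and 924 CPM in medium replicates 1 to 4. The lowest corticosterone library stood above the highest medium library, and the log2 fold change was 0.28 ± 0.0301 (SE, adjusted p = 8.98e-06). Hsp90b1 (ENSMUSG00000020048.13, chromosome 10, 86690209 to 86705509, minus strand), the ER member of the Hsp90 family, had 1606, 1639, 1495 and 1613 CPM with corticosterone, against 1347, 1402, 1380 and 1385 CPM in medium. The groups did not overlap, with a log2 fold change of 0.20 ± 0.0284 (SE, edgeR adjusted p = 8.9e-05).

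Calr (ENSMUSG00000003814.8, chromosome 8, 84841850 to 84846934, minus strand) encodes calreticulin, a lectin that holds new glycoproteins until they fold. It had 1047, 1035, 1021 and 1057 CPM with corticosterone, against 781, 819, 777 and 816 CPM in medium. The rise of 30.3% (log2 fold change 0.38 ± 0.0244, adjusted p = 8.17e-08) was far larger than the spread within either group. Canx (ENSMUSG00000020368.15, chromosome 11, 50293961 to 50325673, minus strand), its membrane-bound counterpart calnexin, had 1019, 1023, 974 and 1007 CPM with corticosterone, against 923, 954, 960 and 950 CPM in medium. The groups lay close without overlapping, and the log2 fold change was 0.09 ± 0.023 (adjusted p = 0.00904). It was 0.07 in the 6 libraries, where Canx did not pass (adjusted p = 0.0861).

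Among the co-chaperones of BiP, Dnajb9 changed most. Dnajb9, which also represses IRE1, had 21.11, 20.06, 20.02 and 21.13 CPM with corticosterone, against 14.31, 14.72, 13.92 and 16.03 CPM in medium. Every corticosterone library exceeded every medium library, with a log2 fold change of 0.48 ± 0.0524 (adjusted p = 1.1e-05). Part of its sequence recurs elsewhere, since 89.2% of its 31-mers were unique to it. Sdf2l1, a partner of the J-domain protein Dnajb11, had 37.9, 38.0, 34.3 and 38.5 CPM with corticosterone, against 27.6, 30.3, 28.8 and 30.8 CPM in medium (log2 fold change 0.34, adjusted p = 1.22e-04). Manf, an ER-resident and secreted survival factor, had 154, 161, 147 and 167 CPM with corticosterone, against 127, 131, 134 and 132 CPM in medium (log2 fold change 0.26, adjusted p = 8.81e-05). Neither pair of groups overlapped.

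The remaining chaperones moved less. Dnajb11 averaged 145 ± 4.45 CPM with corticosterone and 129.9 ± 2.99 CPM in medium, and Hyou1, a nucleotide exchange factor of BiP, averaged 266 ± 5.66 CPM with corticosterone and 239.9 ± 6.78 CPM in medium. Dnajc3, a J-domain co-chaperone that is also known as an inhibitor of PERK, averaged 143 ± 2.09 CPM with corticosterone and 134 ± 2.22 CPM in medium. These 3 rose by log2 fold changes of 0.16, 0.15 and 0.09, each with groups that did not overlap. Creld2, a secreted ER stress-induced protein, had 45.8 to 50.7 CPM with corticosterone and 43.8 to 47.0 CPM in medium. Its groups overlapped, and its call (log2 fold change 0.11, adjusted p = 0.037) was lost when any of 6 single libraries was left out, with adjusted p-values of 0.0679 to 0.0993.

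**Figure D3:**
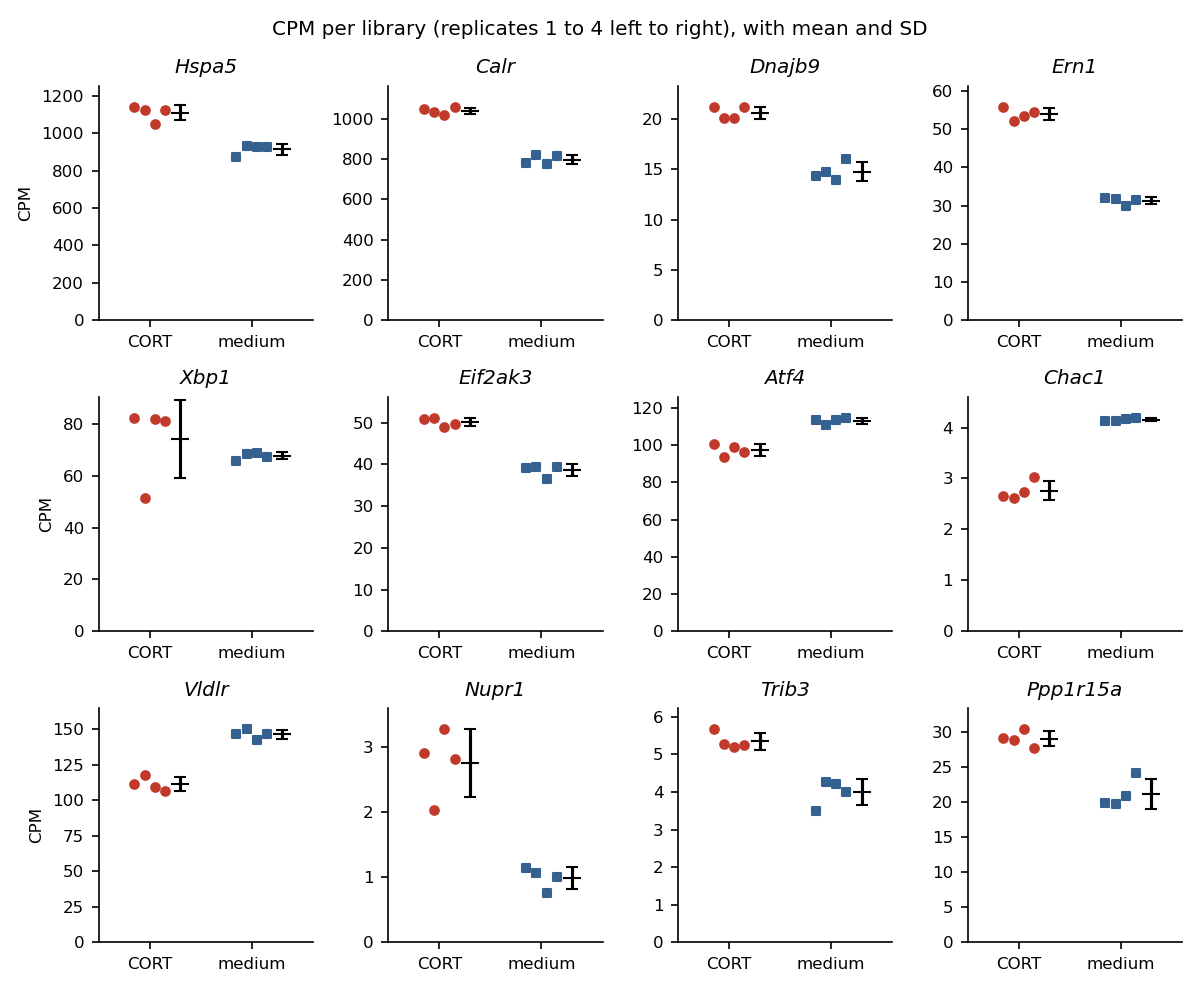
CPM of 12 genes in each library (linear axis from 0), with corticosterone replicates 1 to 4 at left (red circles) and medium replicates 1 to 4 at right (blue squares), and the mean and SD of each group (n = 4). The groups are apart in every panel but that of Xbp1, where corticosterone replicate 2 lies at 51.5 CPM and the other 3 at 80.9 to 82.0 CPM.

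Disulfide bonds in new proteins are formed and rearranged by the protein disulfide isomerases. P4hb, the founding isomerase, had 777, 804, 744 and 753 CPM with corticosterone, against 669, 686, 709.7 and 701 CPM in medium. Pdia3, the isomerase that works with calreticulin and calnexin, had 1036, 1079, 1024 and 1057 CPM with corticosterone, against 901, 919, 896 and 916 CPM in medium. Pdia4 had 259, 258, 244 and 256 CPM with corticosterone, against 219, 225, 219.9 and 218 CPM in medium. In all 3 genes the groups did not overlap, and the log2 fold changes were 0.15 ± 0.0288 (adjusted p = 9.27e-04), 0.21 ± 0.0224 (adjusted p = 9.72e-06) and 0.21 ± 0.0255 (adjusted p = 3.34e-05), in the same order. Ero1l, the oxidase that recharges the isomerases, had 63.9 to 68.7 CPM with corticosterone and 63.5 to 66.2 CPM in medium, overlapping, and did not pass (log2 fold change 0.04, adjusted p = 0.364).

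Pdia6 cannot be read from the gene table. It had 5.25, 44.6, 8.95 and 8.27 CPM with corticosterone, against 9.28, 8.10, 3.12 and 4.15 CPM in medium (log2 fold change 1.42 ± 0.822, adjusted p = 0.231). The table leaves out its main coding transcript, Pdia6-201. In the transcript tables that transcript had 0, 2072, 3273 and 2795 estimated counts with corticosterone, against 3389, 1531, 1159 and 2041 in medium. The 0 stood in corticosterone replicate 1, which has the other effective length. Summed over all its transcripts, Pdia6 had a log2 fold change of 0.28 over the 8 libraries, the 0 included (edgeR, adjusted p = 0.819). On TPM in the 6 libraries, limma called it higher, by 0.60 on the log2(TPM + 1) scale (adjusted p = 0.0115).

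Genes of ER-associated degradation, which send misfolded proteins to the proteasome, had a median log2 fold change of 0.06, and 1 of 4 rose (25.0%), Edem1, where 19.5% of all genes tested rose. Edem1, a lectin that selects misfolded glycoproteins, had 98.4, 93.9, 96.0 and 99.4 CPM with corticosterone, against 81.5, 81.3, 82.9 and 82.9 CPM in medium. The groups were well apart and the log2 fold change was 0.24 ± 0.0252 (adjusted p = 8.32e-06). The other 3 belong to the HRD1 ubiquitin ligase complex and did not pass. Sel1l, its adaptor, had 186, 188, 192 and 190.4 CPM with corticosterone, against 185, 183, 172 and 181 CPM in medium, without overlap (log2 fold change 0.07, adjusted p = 0.0645). Sel1l did pass in the 6 libraries, at an adjusted p of 0.0476, and when medium replicate 1 was left out, at 0.0376. Herpud1, a stress-induced subunit, had 20.9 to 23.2 CPM with corticosterone and 20.6 to 22.5 CPM in medium, and Syvn1, the ligase HRD1 itself, had 49.2 to 51.3 CPM with corticosterone and 47.0 to 54.7 CPM in medium. Both overlapped, with log2 fold changes of 0.05 (adjusted p = 0.49) and -0.03 (adjusted p = 0.678).

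On the TPM scale fewer folding genes were called. Limma on log2(TPM + 1) called 2 of the 20 folding and degradation genes higher in all 8 libraries, Calr and Edem1, against 7.83% of all genes. Of the 16 ATF4 arm genes it called 4 higher and 1 lower, against 7.83% and 4.85%, and of the 4 sensors 2 higher. In the 6 libraries it called 9 of 20 higher, 6 of them chaperones, against 9.66% of all genes. Of the 16 ATF4 arm genes it called 4 higher and 6 lower there, against 9.66% and 12.0%, and of the 4 sensors again 2 higher. In the same 6 libraries, edgeR on counts called 14 of 20 higher, 9 of them chaperones, against 18.4% of all genes. TPM is computed with the effective lengths, which differ between libraries. The part of this in the lower numbers of calls was not tested.

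**Figure D4:**
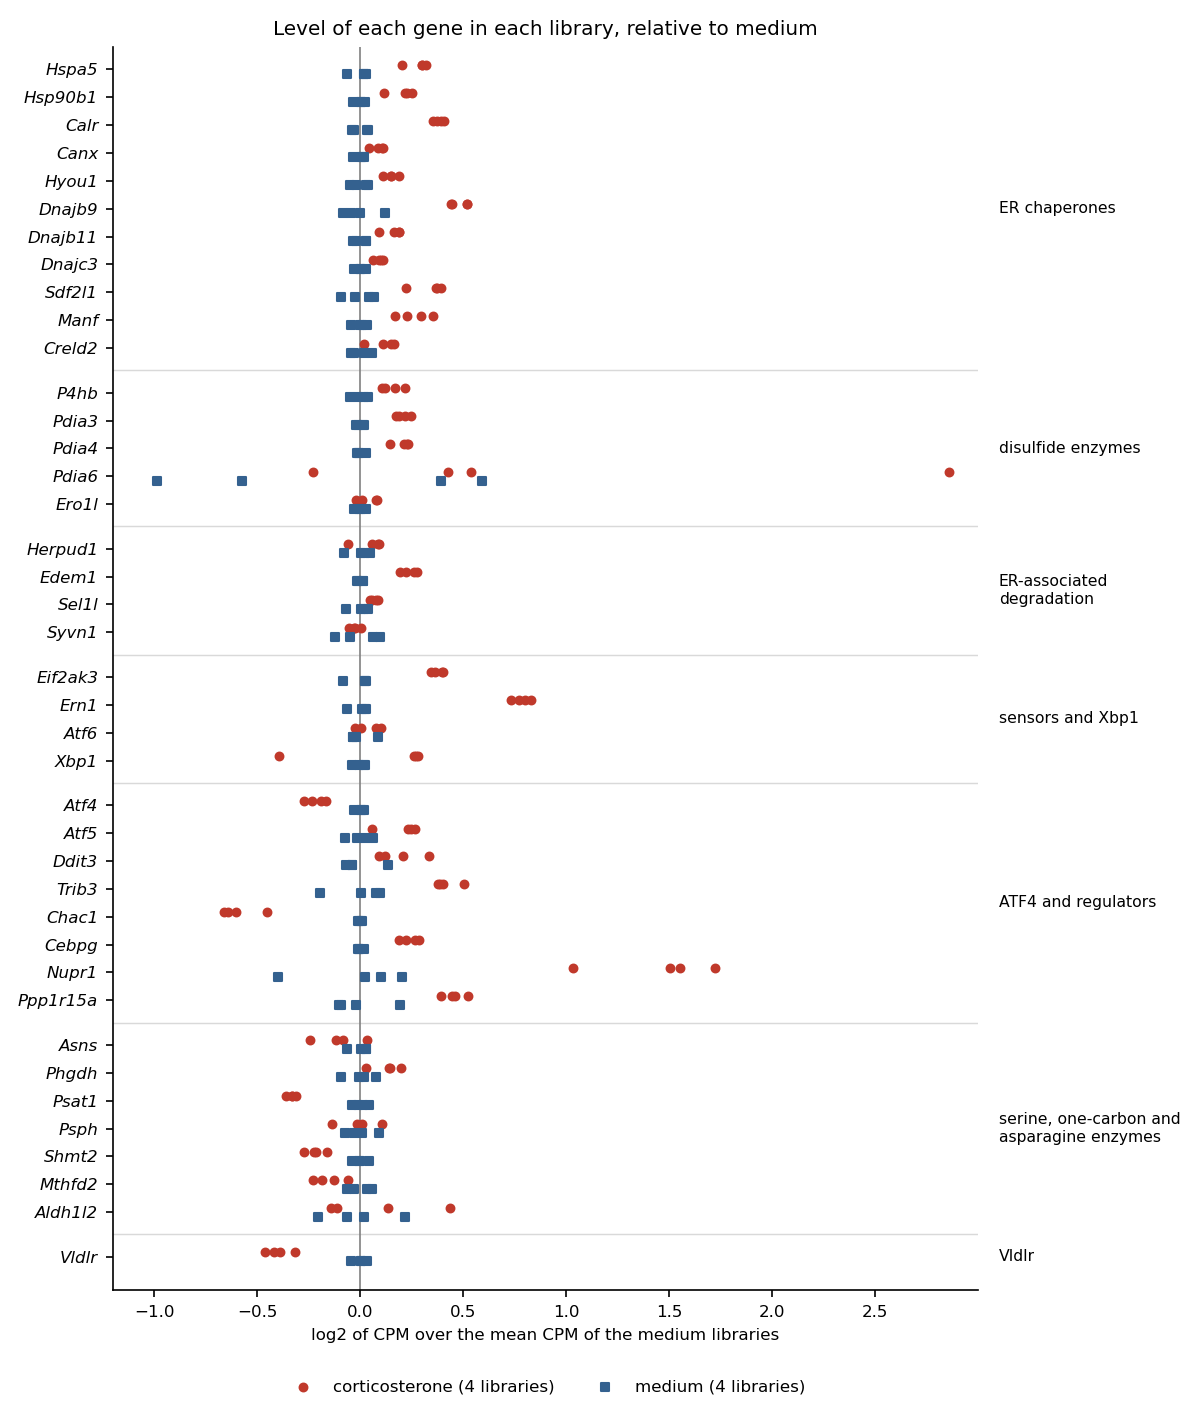
Level of each of the 40 genes in each library as the log2 of its CPM over the mean CPM of the 4 medium libraries (red circles, corticosterone; blue squares, medium; 4 libraries each), grouped by role. The chaperones lie to the right of 0 with corticosterone, the ATF4 arm lies on both sides, and the circles of Xbp1 and Pdia6 farthest from the others are both corticosterone replicate 2.

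Corticosterone replicate 3 and medium replicate 1 held the lowest chaperone levels of their groups. In corticosterone replicate 3 the median chaperone stood 0.12 above the medium mean on the log2 scale, against 0.22, 0.25 and 0.23 in replicates 1, 2 and 4. Of the 14 chaperone and disulfide genes that rose, 13 were lowest in replicate 3 among the corticosterone libraries, where 22.7% of all genes tested were lowest. In medium, 9 of the 14 were lowest in replicate 1, where 28.0% of all genes tested were lowest. Both libraries have the usual effective lengths, and replicate 1 of medium is the deepest of the 8.

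Both kinases among the sensors rose. Ern1 (ENSMUSG00000020715.9, chromosome 11, 106394650 to 106487852, minus strand) encodes IRE1, the kinase and ribonuclease that splices Xbp1 mRNA. It had 55.6, 52.0, 53.3 and 54.4 CPM with corticosterone, against 31.9, 31.8, 29.9 and 31.4 CPM in medium. The groups were far apart relative to their spread, and Ern1 rose 1.72-fold (log2 0.78 ± 0.0351, SE, adjusted p = 2.88e-09), with a log2 fold change of 0.78 in the 6 libraries. Eif2ak3 (ENSMUSG00000031668.14, chromosome 6, 70844515 to 70905245, plus strand), the eIF2 kinase PERK, had 50.8, 51.0, 49.0 and 49.7 CPM with corticosterone, against 39.2, 39.4, 36.5 and 39.3 CPM in medium. It rose by 29.8% (log2 fold change 0.38 ± 0.0345, adjusted p = 2.26e-06), again without overlap.

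Atf6, the membrane-bound transcription factor that is cleaved under stress, had 131, 128, 138 and 140.0 CPM with corticosterone, against 127, 129, 127 and 138 CPM in medium. The groups overlapped and the gene did not pass (log2 fold change 0.04, adjusted p = 0.415). Xbp1, the target of IRE1, depended on 1 library. It had 82.0, 51.5, 81.6 and 80.9 CPM with corticosterone, against 65.8, 68.4, 68.7 and 67.3 CPM in medium, so that 3 corticosterone libraries stood above all medium libraries and replicate 2 stood below them. The log2 fold change was 0.13 ± 0.157 over all 8 libraries (adjusted p = 0.56). Leaving out corticosterone replicate 2 gave 0.27 (adjusted p = 5.38e-06), and the 6 libraries also gave 0.27 (adjusted p = 4.92e-06). Its longest coding transcript, Xbp1-201, had 1132 estimated counts in that replicate and 2014 to 2401 in the other 3. Among its 4 annotated transcripts, 0 had the 26-nt intron that IRE1 removes, so the spliced form had no entry of its own and the share of spliced mRNA, and with it the activity of IRE1, was not measured.

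In the ATF4 arm, 5 of 8 transcription factors and stress regulators rose (62.5%) and 2 fell (25.0%), where 19.5% and 20.6% of all genes tested did so. The median of the 8 genes was 0.22 on the log2 scale. ATF4 pairs with C/EBP proteins on the C/EBP-ATF response element (CARE), searched here as TGATGNAA on both strands. It was present in 5 of 18 windows of the 15 ATF4 arm genes (27.8%), those of Trib3, Chac1, Nupr1 and Asns and 1 of the 2 of Vldlr, and in 3.97% of all windows. CARE was also in the window of Herpud1, 1 of 18 windows of the folding and degradation genes (5.6%). Of the 5 ATF4 arm genes with the element 2 rose, 2 fell and 1 did not pass, so it is shown in genes that moved in opposite directions. Chac1, which fell, is shown with the 250 bases before its start (chr2:119350992-119351241, plus strand, element in capitals on the opposite strand, first base at position -193). The other ATF4 arm genes with the element are shown as sites with 5 bases on either side and the fixed letters in capitals. They are Nupr1 (chr7:126625573-126625580, plus strand) and Trib3 (chr2:152344039-152344046, plus strand), which rose, Vldlr (chr19:27216820-27216827, minus strand), which fell, and Asns (chr6:7693225-7693232, minus strand), which did not pass.
Chac1: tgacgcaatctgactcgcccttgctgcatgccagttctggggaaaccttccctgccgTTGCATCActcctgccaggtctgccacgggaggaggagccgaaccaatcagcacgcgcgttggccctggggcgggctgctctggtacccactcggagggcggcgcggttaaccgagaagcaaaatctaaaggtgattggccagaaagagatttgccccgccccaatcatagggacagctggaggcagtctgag
Nupr1: ctgtcTGATGcAAtctgg
Trib3: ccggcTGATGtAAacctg
Vldlr: agcgcTGATGcAActatt
Asns: ccacaTGATGaAActtcc

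Atf4 (ENSMUSG00000042406.8, chromosome 15, 80255184 to 80257541, plus strand) was lower with corticosterone. It had 100.6, 93.7, 99.0 and 96.3 CPM with corticosterone, against 113, 110.6, 114 and 114 CPM in medium. All corticosterone libraries lay below all medium libraries, and the mRNA fell by 13.8% (log2 fold change -0.21 ± 0.0271, adjusted p = 4.06e-05). ATF4 is controlled mainly in translation, which mRNA counts do not show. Atf5, a related factor controlled in the same way, had 21.18, 20.98, 18.60 and 21.49 CPM with corticosterone, against 18.61, 18.11, 16.98 and 17.66 CPM in medium. It rose (log2 fold change 0.20, adjusted p = 0.00997) with groups that overlapped narrowly, and did not pass in the 6 libraries (adjusted p = 0.0701). Cebpg, the C/EBP partner of ATF4, had 82.6, 86.2, 80.8 and 85.3 CPM with corticosterone, against 70.5, 71.7, 70.4 and 70.6 CPM in medium. It rose by 18.2% without overlap (adjusted p = 1.2e-05).

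Nupr1 (ENSMUSG00000030717.9, chromosome 7, 126623249 to 126630861, minus strand), a small stress-induced chromatin protein, had the largest called fold change of the 40 genes at a low level. It had 2.91, 2.03, 3.28 and 2.82 CPM with corticosterone, against 1.14, 1.07, 0.754 and 1.01 CPM in medium. That is 333 estimated counts in all with corticosterone and 128 in medium, a 2.74-fold rise (log2 fold change 1.46 ± 0.193, adjusted p = 6.09e-05). Trib3, a pseudokinase that restrains ATF4 and CHOP, had 5.67, 5.28, 5.19 and 5.24 CPM with corticosterone, against 3.50, 4.27, 4.22 and 4.01 CPM in medium. It rose by 34.0% without overlap (adjusted p = 0.00352).

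Ppp1r15a encodes GADD34, the subunit that directs phosphatase 1 to eIF2 and restores translation. It had 29.1, 28.8, 30.3 and 27.7 CPM with corticosterone, against 19.8, 19.7, 20.9 and 24.2 CPM in medium. The groups did not overlap, and the gene rose by 37.2% (log2 fold change 0.46 ± 0.0636, adjusted p = 9.13e-05). Chac1 (ENSMUSG00000027313.3, chromosome 2, 119351229 to 119354381, plus strand), an enzyme that degrades glutathione and a sensitive ATF4 target, went the other way. It had 2.66, 2.62, 2.73 and 3.03 CPM with corticosterone, against 4.13, 4.12, 4.17 and 4.18 CPM in medium. It fell by 33.5% (log2 fold change -0.59 ± 0.101, adjusted p = 5.09e-04), the largest fall of the 40 genes.

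Ddit3 encodes CHOP, a transcription factor linked to cell death under lasting ER stress. It had 11.3, 10.5, 10.7 and 12.4 CPM with corticosterone, against 10.8, 9.35, 9.55 and 9.55 CPM in medium. The groups overlapped through medium replicate 1, and the gene did not pass (log2 fold change 0.19 ± 0.072, adjusted p = 0.0535). It passed without that library (adjusted p = 0.0232) and without corticosterone replicate 2 (adjusted p = 0.0374). A second, untested identifier of the same symbol held 15 counts in corticosterone replicate 2 and 0 in the other libraries.

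Of the 7 enzymes of serine, one-carbon and asparagine metabolism, 1 rose (14.3%) and 3 fell (42.9%), where 19.5% and 20.6% of all genes tested did so, and the median was -0.10 on the log2 scale. Together they had 529.8 ± 14.03 CPM with corticosterone and 572 ± 17.8 CPM in medium. Psat1, the second enzyme of serine synthesis, had 127, 127, 125 and 129 CPM with corticosterone, against 156, 159, 165 and 162 CPM in medium. It fell by 20.6% with groups far apart (log2 fold change -0.33 ± 0.0249, adjusted p = 3.55e-07). The enzymes before and after it in the pathway were not lower by the test. Phgdh, which starts the pathway, had 198, 204.9, 182 and 197 CPM with corticosterone, against 167, 178, 189 and 181 CPM in medium. Its groups overlapped, its call (log2 fold change 0.13, adjusted p = 0.0285) was lost without any of 6 single libraries (adjusted p = 0.0573 to 0.072) and over the 6 libraries (adjusted p = 0.141), and 44.2% of its 31-mers were unique to it. Psph, which completes the pathway, had 18.6 to 22.0 CPM with corticosterone and 19.4 to 21.8 CPM in medium (log2 fold change -0.01, adjusted p = 0.944).

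Of the 3 mitochondrial folate enzymes, Shmt2 and Mthfd2 fell and Aldh1l2 did not pass. Shmt2, which splits serine to charge folate, had 128, 123, 119 and 123 CPM with corticosterone, against 139, 143, 147 and 143 CPM in medium. Mthfd2, the next enzyme, had 42.0, 37.4, 38.5 and 40.1 CPM with corticosterone, against 41.9, 44.9, 42.8 and 45.5 CPM in medium. Shmt2 fell by 13.97% without overlap (adjusted p = 5.06e-05) and Mthfd2 fell by 9.80% with overlap (adjusted p = 0.0151). The call of Mthfd2 was lost without medium replicate 2 (adjusted p = 0.0554) or 4 (adjusted p = 0.06). Aldh1l2, which consumes the charged folate, was at a low level, with 1.30 to 1.95 CPM with corticosterone and 1.251 to 1.67 CPM in medium (log2 fold change 0.10, adjusted p = 0.72).

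Asns, asparagine synthetase and a classical ATF4 target, had 22.4, 20.5, 24.9 and 23.0 CPM with corticosterone, against 23.3, 24.4, 24.8 and 24.8 CPM in medium. The groups overlapped and it did not pass (log2 fold change -0.10, adjusted p = 0.198), though it passed without corticosterone replicate 3 (adjusted p = 0.0464). Vldlr (ENSMUSG00000024924.14, chromosome 19, 27216484 to 27254231, plus strand), a lipoprotein receptor, had 112, 118, 109.7 and 106 CPM with corticosterone, against 147, 150.1, 142 and 147 CPM in medium. It fell by 24.0% with groups far apart (log2 fold change -0.40 ± 0.0321, adjusted p = 7.46e-07).

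In the 6 libraries without corticosterone replicates 1 and 2, 21 of the 40 genes rose and 6 fell, where 18.4% and 18.0% of the 13639 genes tested did so (36.4% in all). The 6 that fell were the same as in 8 libraries. Of the 23 that rose in 8 libraries, Atf5, Phgdh, Canx and Creld2 were lost, and Xbp1 and Sel1l were gained.

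**Figure D5:**
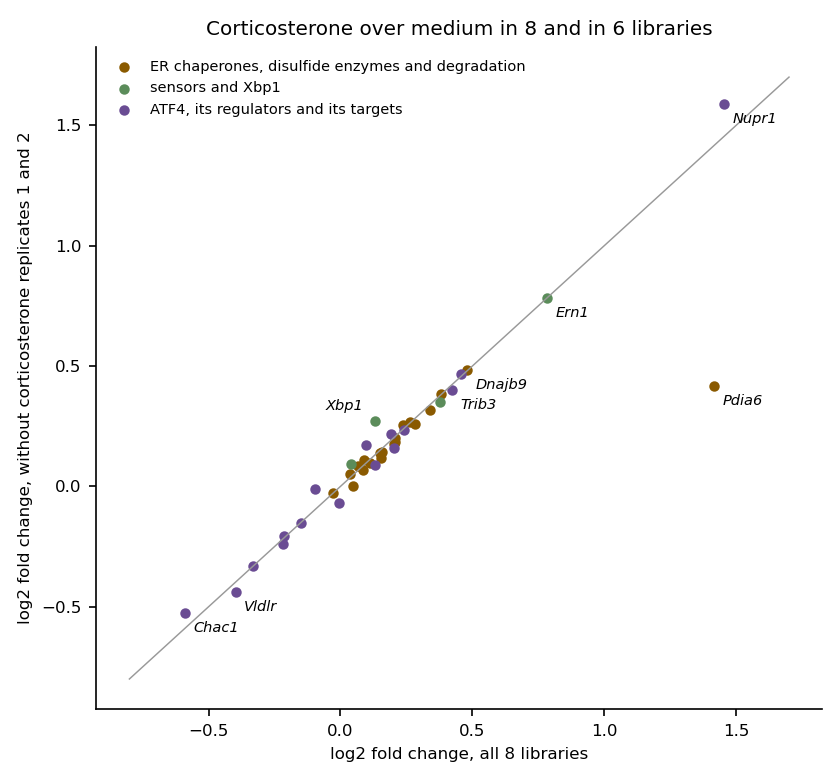
Log2 fold change (corticosterone over medium) of the 40 genes in the 6 libraries without corticosterone replicates 1 and 2 (vertical) against all 8 libraries (horizontal), 1 point per gene, with the line of equal values. Pdia6 lies farthest from the line, at 1.42 in 8 and 0.42 in 6 libraries. Xbp1, at 0.13 and 0.27, and Nupr1, at 1.46 and 1.59, lie above it.

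The pathway around these genes was described with 160 other genes on 8 lists, of which 156 were tested. Of these, 50 rose (32.1%) and 19 fell (12.2%), 44.2% in all, against 40.1% of all genes tested, and the median was 0.04 on the log2 scale. Of 10 amino acid transporters linked to ATF4, 5 rose and 1 fell. Slc7a11, which imports cystine, had 65.1, 65.7, 67.0 and 63.3 CPM with corticosterone, against 20.5, 18.2, 19.1 and 21.1 CPM in medium. It rose 3.30-fold and Slc38a2, an importer of small neutral amino acids, 1.98-fold, both without overlap. Slc7a5, which imports large neutral amino acids, fell by 13.8% (adjusted p = 3.21e-05).

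Of 18 other metabolic and stress genes linked to ATF4, 8 rose (44.4%) and 5 fell (27.8%), against 19.5% and 20.6% of all genes tested. Cebpb, a C/EBP factor, had 41.0, 44.0, 45.5 and 56.4 CPM with corticosterone, against 13.4, 13.3, 14.1 and 12.3 CPM in medium. It rose 3.52-fold. Ddit4, which restrains mTOR, was 3.11-fold higher. Both are known glucocorticoid-induced genes as well. Atf3, a stress-induced partner of CHOP, had 9.62, 8.20, 8.74 and 9.10 CPM with corticosterone, against 14.03, 12.70, 14.17 and 13.87 CPM in medium. It fell by 34.8% (adjusted p = 7.51e-06). Gdf15, a stress-induced cytokine, averaged 0.585 ± 0.199 CPM with corticosterone and 1.20 ± 0.0721 CPM in medium and fell as well (log2 fold change -1.03, adjusted p = 0.00752).

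Of the 20 cytosolic aminoacyl-tRNA synthetases, which charge tRNAs and include ATF4 targets, 5 rose (25.0%) and 6 fell (30.0%). Those shares lay near the 19.5% and 20.6% of all genes tested. Wars (log2 fold change 0.32) and Iars (0.20) rose most among those called, and Rars (-0.37) and Cars (-0.23) fell most. Yars, named after its values were seen, had 14.2, 13.9, 3.91 and 5.82 CPM with corticosterone, against 3.77, 2.32, 3.87 and 4.39 CPM in medium, and did not pass (adjusted p = 0.0664). Its 2 high libraries are those with the other effective length. Of 13 genes of eIF2, its kinases, its exchange factor and its phosphatase, 2 rose and none fell. That is 15.4% changed, against 40.1% of all genes tested. The 2 that rose were Eif2b2 and Eif2b3, subunits of the exchange factor, with log2 fold changes of 0.18 and 0.13.

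Of 30 other ER folding enzymes and chaperones, 6 rose and 3 fell, 30.0% in all, against 40.1% of all genes tested, and the median was 0.04 on the log2 scale. Fkbp14, a prolyl isomerase that folds collagen, had 62.5, 61.6, 65.1 and 66.0 CPM with corticosterone, against 16.4, 17.4, 19.7 and 19.6 CPM in medium. It rose 3.50-fold (adjusted p = 2.22e-10), more than any of the 40 genes called. Txndc11, a thioredoxin-like protein, rose by 15.9%, and Fkbp9 fell by 8.42% and Txndc12 fell by 6.53%.

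Of 23 other genes of ER-associated degradation, 9 rose (39.1%) and 2 fell (8.7%), where 19.5% and 20.6% of all genes tested did so. Ube2g2, a ubiquitin-conjugating enzyme of this pathway, had 134, 123, 133 and 133 CPM with corticosterone, against 78.9, 82.6, 81.6 and 82.3 CPM in medium. It rose by 60.8% without overlap (adjusted p = 2.66e-09), and Aup1, which recruits it to the membrane, rose by 13.9% (adjusted p = 1.16e-04). Edem2 fell by 6.35% and did not pass in the 6 libraries (adjusted p = 0.102). Among 8 other sensors and regulators, 3 rose (37.5%) and 1 fell (12.5%). Atf6b, the paralog of Atf6, rose by 18.7% (adjusted p = 2.51e-05) and Wfs1 by 9.13% (adjusted p = 0.0435), and Creb3l2 fell by 9.74% (adjusted p = 6.07e-04).

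Of 34 genes of the translocon, signal cleavage, glycan transfer and COPII export, 12 rose (35.3%) and 1 fell (2.94%). Among all genes tested, 19.5% rose and 20.6% fell. The median of the 34 genes was 0.05 on the log2 scale. Ssr4, of the translocon-associated complex, averaged 51.5 ± 0.624 CPM with corticosterone and 43.8 ± 0.517 CPM in medium. Sec61a1, the channel through which new proteins enter the ER, averaged 200.2 ± 7.98 CPM with corticosterone and 171 ± 4.21 CPM in medium. They rose by 17.5% and 17.2%. Sec63, a translocon partner that recruits BiP, fell by 7.22% (adjusted p = 0.00166).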

How the data were processed

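Poly(A)-selected RNA of 8 bEnd3 samples, 4 with corticosterone and 4 in medium, was sequenced. Per the submitters' processing notes the tools were bcl2fastq and kallisto 0.46.1. The authors deposited transcript tables with estimated counts, TPM and effective lengths for each sample, and a gene table of estimated counts. Of the gene identifiers, 99.8% matched GENCODE M21. The estimated counts were rounded and tested with edgeR 4.0.16 (R 4.3.3): TMM scaling, a low-count filter by group, a quasi-likelihood test and Benjamini-Hochberg adjustment over 13272 genes. A gene was called at an adjusted p under 0.05. CPM used the scaled libraries, and a standard error is the fold change over the root of the F statistic. The deposited TPM values were tested with limma 3.58.1 on log2(TPM + 1), which understates changes of low genes. DESeq2 1.42.0, other scalings, no filter, left-out libraries and a replicate block were alternatives. The procedure was tested on simulated data.

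All 40 genes were named, and from each of 8 other lists at most the 2 called rises and 2 called falls of largest size with a mean of 1 CPM or more in a group. A gene that this rule names is not reported here. The genes, lists and tests were chosen with earlier results of these data known. Promoter windows came from RefSeq on GRCm38.p6. Counts limit the precision of low genes such as Nupr1 and Chac1.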

Additional observations from a re-analysis of the deposited data

Results flagged for a closer look

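These values stood apart from the other 3 libraries of their group by Dixon's criterion (the gap to the nearest library as a share of the range), which chance meets in about 1 in 20 groups. Hspa5 was low in both groups, at 1051 CPM in corticosterone replicate 3 and at 872 CPM in medium replicate 1. Sdf2l1 was low in corticosterone replicate 3, at 34.3 CPM. In corticosterone replicate 2, Xbp1 was low at 51.5 CPM and Pdia6 was high at 44.6 CPM. In medium, Ddit3 was high in replicate 1 at 10.8 CPM, Eif2ak3 was low in replicate 3 at 36.5 CPM and Atf6 was high in replicate 4 at 138 CPM.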

How the results depend on the processing

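Over 18 alternatives, the 40 genes gave 720 values, of which 641 kept direction and side of the threshold, 56 lost the call, 12 gained it and 11 changed sign. The transcript tables summed to genes and TPM in 6 libraries were chosen after seeing the data. On TPM in 8 libraries, 2 folding and degradation genes, 4 ATF4 arm genes, 2 sensors and 10 of the 160 other pathway genes were higher, against 7.83% of all genes. There 1 ATF4 arm gene and 4 other pathway genes were lower, against 4.85%. On TPM in 6 libraries, 9 folding and degradation genes, 4 ATF4 arm genes, 2 sensors and 15 of the 160 other pathway genes were higher, against 9.66% of all genes. The shares of other pathway genes that rose on TPM lay near those of all genes. In the analysis reported, 32.1% of the other pathway genes tested rose, against 19.5% of all genes. With library size alone 29 other pathway genes were lower, and of 5556 calls among all genes 39.4% were higher, against 48.6% of 5327 in the analysis reported. That share was 61.8% of 1682 calls on TPM and 44.5% of 2878 calls on TPM in 6 libraries. The log2 fold changes that changed sign belonged to genes that were not called. On TPM they were -0.0458 for Ddit3, 0.11 for Psph, -0.12 for Pdia6 and 0.12 for Syvn1, and -0.20 for Herpud1 on TPM in 6 libraries. Psph was at 0.0004 with DESeq2. With 1 library left out, Psph ranged from -0.0461 to 0.0351, Aldh1l2 from -0.0272 to 0.179 and Syvn1 from -0.0656 to 0.0113. The cause was not tested. Same-numbered samples of the groups correlated at -0.05 to 0.03 in their deviations from the group means. In the corticosterone group these deviations include the wide differences of replicates 1 and 2, the libraries with the other effective length. The check therefore cannot decide whether the numbers pair the samples. A replicate block gave 4913 calls and ended the call of Phgdh (adjusted p = 0.0813). The share of spliced Xbp1 was not run.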
